A study of Mus musculus with 8 samples.

Results

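The 7 genes described here are the aryl hydrocarbon receptor gene Ahr, its partner Arnt, and 5 of its known targets, Ahrr, Cyp1a1, Cyp1b1, Tiparp and Nqo1. They were taken by gene name from the deposited table, which has 19703 rows, and each of the 7 had 1 row. They were chosen by name as genes of this pathway that are active in Th17 cultures, with the expression values of these libraries by group and replicate number already known, so their levels are given as a description and without a test. The RNA is from Tregs (FOXP3-dependent regulatory CD4 T cells) labelled WT, sorted from the reporter strain Foxp3-GFP, whose age is not labelled. For both groups the cells were grown with beads carrying antibodies to CD3 and CD28, under Th17-favouring IL6, IL23 and IL1B, until day 6, and FcCD70, a CD70 reagent that acts on the receptor CD27, was present in 1 group and absent in the other. Of 8 labelled samples (4 per group), columns exist for 4 titled untreated and 3 titled FcCD70. Title and treatment field contradict each other for all 8, and the grouping here rests on titles and column names, so each direction below would turn if the treatment field were the correct one.

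The aryl hydrocarbon receptor is a transcription factor that waits in the cytosol in a complex with the chaperone HSP90. Planar ligands such as dioxins, and natural ones made from tryptophan, send it to the nucleus, where it pairs with ARNT and binds DNA at a GCGTG core. It then switches on genes of ligand breakdown, such as those of the CYP1 enzymes, and its own brakes, the repressor AHRR and the ADP-ribosyltransferase TIPARP. Among CD4 T cells the receptor is best known from Th17 cells, where it is needed for IL-22, and it also has roles in Tregs.

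The DNA upstream of these genes was searched for that core because it is the site where the receptor pair can bind. RefSeq windows of 250 bases before the start (build GRCm38.p6) were found for 6 members, and Ahr was not among them. The letters GCGTG, on either strand, stood in 5 of these 6 windows, against 28.2% of all 32851 windows of that length. The core contains CG, which the 6 windows held 3 (Cyp1a1) to 28 (Tiparp) times. The windows of all genes were not matched for CG content, so the 2 shares are not like for like. Ahrr had 3 copies of the core, and 2.77% of all windows had 3 or more. The longer form TNGCGTG, which contains the core, occurred in 1 member, Ahrr, and in 4.10% of all windows. Nqo1 had no copy in this window, and it also lacked TGACNNNGC, the antioxidant element of the factor NRF2, which Arnt had and which 10.2% of windows hold. The windows shown are those of the 2 CYP1 genes, the classical targets, and that of Ahrr, which had the most cores, with each core in capitals.
Cyp1a1: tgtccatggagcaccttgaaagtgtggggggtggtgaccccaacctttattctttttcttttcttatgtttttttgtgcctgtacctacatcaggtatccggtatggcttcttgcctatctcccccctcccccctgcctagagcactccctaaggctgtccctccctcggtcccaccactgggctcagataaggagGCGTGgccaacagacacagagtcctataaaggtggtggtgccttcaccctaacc
Cyp1b1: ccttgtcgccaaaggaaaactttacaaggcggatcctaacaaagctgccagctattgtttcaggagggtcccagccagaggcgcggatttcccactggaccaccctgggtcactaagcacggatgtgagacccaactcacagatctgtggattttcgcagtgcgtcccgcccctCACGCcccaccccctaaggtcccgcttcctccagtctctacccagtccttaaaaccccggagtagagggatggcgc
Ahrr: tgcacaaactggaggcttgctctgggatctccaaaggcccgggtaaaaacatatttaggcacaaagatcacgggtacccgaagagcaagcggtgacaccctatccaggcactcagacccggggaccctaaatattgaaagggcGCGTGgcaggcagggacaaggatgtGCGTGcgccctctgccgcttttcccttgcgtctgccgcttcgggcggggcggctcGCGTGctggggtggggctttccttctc
The Cyp1a1 window is chr9:57697363-57697612 on the plus strand and lies before the downstream one of the gene's annotated starts. The Cyp1b1 window is chr17:79715062-79715311 and the Ahrr window chr13:74292332-74292581, both on the minus strand. The core of Cyp1a1 begins 54 bases before the start. That of Cyp1b1 begins 76 bases before it and reads CACGC, since it lies on the other strand. The cores of Ahrr begin 107, 82 and 27 bases before its start, and the last of them belongs to the longer form. These matches describe the letters only, since no binding was measured.

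The 7 libraries held 18159685 to 23527899 reads assigned to genes. All 6 Treg markers listed, Foxp3 among them, were present in each library. Foxp3 was lowest in FcCD70 number 2, at 2788 normalized counts against 4811 to 6585 in the other 6, or 49.7% of its partner. The 6 markers had summed normalized counts of 64938 to 69401 untreated and 54432 to 68729 with FcCD70. Of the other cells' markers, B cell genes summed to 32846 to 35936 untreated and 32859 to 36913 with FcCD70, nearly all of it Ighm. The 2 myeloid markers with a row summed to at most 3.03 untreated and 4.49 with FcCD70, and the 2 NK markers to at most 5.83 and 7.94, with Ncr1 at 0 throughout. CD8 markers summed to 118 to 183 untreated and 149 to 201 with FcCD70. Nearly all of this was Cd8b1, and Cd8a had 0 to 13.1 normalized counts over the 7 libraries. Of the innate lymphoid markers Il5 was at 0 and Kit made up nearly all of the sum. The FcCD70 library numbered 2 had the lowest median correlation with the other libraries (0.970, against 0.972 to 0.979), so the main results that rest on it are given with and without it. The low Foxp3 of that library goes with the low Ahrr, Arnt, Ncoa2 and Xdh described below, and its part in them was not tested. Separate animals or cultures are not stated for the replicates, and the p-values may therefore reflect technical spread alone. In bulk RNA, fewer cells that express a gene and less RNA per cell cannot be told apart.

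Receptor, partner and the brake gene Tiparp were the steadily expressed members, and the CYP1 genes and Nqo1 were low or variable. Levels of different genes were compared as normalized counts per kilobase of annotated exon. Arnt had 299 ± 29.5 (SD, n = 7) and Tiparp 291 ± 21.8 (SD, n = 7) per kilobase over all libraries, 2 levels that lay within their spread of each other. Ahr followed with 114 ± 10.6 (SD, n = 7), below every value of Arnt and Tiparp. Cyp1a1 had 80.8 ± 67.3 (SD, n = 7) per kilobase and ran from 26.9 to 219, so it overlapped both Ahr, the next gene above, and Ahrr, the next below. Ahrr had 39.2 ± 10.3 (SD, n = 7) per kilobase. Nqo1, with a mean of 11.4 (7.15 to 18.4 over the 7 libraries), and Cyp1b1, with 8.62 ± 3.04 (SD, n = 7), came last, overlapped each other and stayed below each value of Ahrr.

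**Figure D1:**
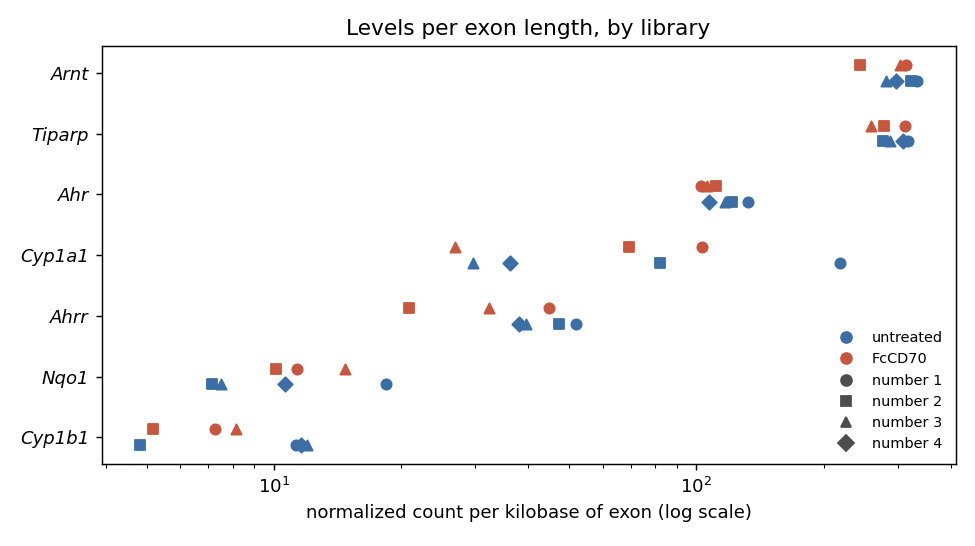
Normalized counts per kilobase of annotated exon (log axis) of the 7 genes, ordered by their mean, with 1 point per library, coloured by group and shaped by replicate number. Arnt and Tiparp share the top, Ahr lies below them in each library, and Cyp1a1 spreads from 26.9 to 219 while the points of Ahr stay between 102 and 133.

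Ahr, the receptor (ENSMUSG00000019256, GRCm38 chromosome 12, 35497974 to 35535038, minus strand), was present in similar amounts in all libraries. The untreated libraries numbered 1 to 4 had 819, 748, 722 and 660 normalized counts, and the FcCD70 libraries numbered 1 to 3 had 631, 687 and 652. The FcCD70 values were lower in 3 of 3 same-numbered pairs, at 77.0%, 91.9% and 90.3% of their untreated partners, although the ranges overlapped because the untreated library numbered 4 lay low. The fitted log2 fold change, FcCD70 minus untreated, was -0.21 (SE 0.14, 95% interval -0.53 to 0.10), with an adjusted p of 0.9998 in limma. Of the 6163 exonic bases of Ahr, 127 are shared with Gm48236 on the opposite strand, and reads of that stretch may belong to either.

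Arnt, which encodes the obligatory DNA-binding partner and also pairs with hypoxia factors (ENSMUSG00000015522, chromosome 3, 95434388 to 95497240, plus strand), was the member with the highest counts. The untreated libraries had 2660, 2584, 2252 and 2373 normalized counts and the FcCD70 libraries 2505, 1953 and 2431. FcCD70 number 2 was the low library, and the other 6 lay between 2252 and 2660. The log2 fold change was -0.13 (SE 0.14, 95% interval -0.43 to 0.18, adjusted p = 0.9998 in limma), and 0.012 with both libraries numbered 2 left out. In the libraries the level of Arnt per kilobase was 2.19 to 3.06 times that of Ahr.

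Ahrr, the repressor that competes with the receptor for ARNT and is itself a target (ENSMUSG00000021575, chromosome 13, 74211118 to 74292331, minus strand), had the smallest unadjusted p of the members. The untreated libraries had 490, 447, 374 and 359 normalized counts and the FcCD70 libraries 423, 198 and 304. Each FcCD70 library lay below its partner, at 86.3%, 44.2% and 81.4% of it, and the ranges overlapped only through the FcCD70 library numbered 1. The log2 fold change was -0.56 (SE 0.22, 95% interval -1.04 to -0.08), with an unadjusted p of 0.0275 and an adjusted p of 0.9998 in limma, so the gene did not pass over all genes tested. With the libraries numbered 2 left out, the log2 fold change was -0.25 (95% interval -0.62 to 0.11, unadjusted p = 0.168, adjusted p = 0.928 in limma), so the unadjusted result and the size of the difference rested on that pair. Without the number as a block it was -0.49 (95% interval -1.03 to 0.05, unadjusted p = 0.0693 in limma). The authors' deposited table, over 8 libraries, gives a log2 fold change of -0.48 after turning its sign to FcCD70 minus untreated, with an unadjusted p of 0.0149 and an adjusted p of 0.99999. Of its tested genes, 0.991% were lower at an unadjusted p under 0.05.

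Cyp1a1, the monooxygenase gene that serves as the classical readout of the receptor (ENSMUSG00000032315, chromosome 9, 57687928 to 57703824, plus strand), differed far more between replicate numbers than between treatments. The untreated libraries numbered 1 to 4 had 610, 228, 82.5 and 101 normalized counts, and the FcCD70 libraries numbered 1 to 3 had 287, 193 and 75.0. In both groups the libraries numbered 1 were highest, those numbered 2 came next and those numbered 3 were lowest, a 7.39-fold span untreated and a 3.83-fold span with FcCD70. Over the 4 untreated libraries the SD of log2 values was 1.31, larger than that of 99.9% of the 9845 genes with a mean of at least 50, whose median SD was 0.13.

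With FcCD70, Cyp1a1 stood at 47.1%, 84.7% and 90.8% of the same-numbered untreated value. All 3 pairs were lower, the first by much more than the other two. The log2 fold change with the number in the fit was -0.49 (SE 0.25, 95% interval -1.04 to 0.07, adjusted p = 0.9998 in limma), and without the libraries numbered 1 it was -0.19. Without the number as a block it was -0.20 (95% interval -1.66 to 1.26). Without the block and without the untreated library numbered 4, which has no partner, it was -0.49 again. Ahr itself did not show that span: its highest untreated value was 1.24 times its lowest, so the ratio of Cyp1a1 to Ahr per kilobase ran from 0.253 in the untreated library numbered 3 to 1.65 in the one numbered 1. Kit, listed as an innate lymphoid marker, moved with the same numbers, with 506, 300, 93.2 and 75.7 normalized counts untreated. With FcCD70 it had 627, 350 and 75.0. The rest of that list did not share this course. Il5 was at 0 throughout, and Zbtb16 had 0, 0, 2.91 and 3.48 untreated and 4.14, 12.4 and 0.882 with FcCD70. The part of Kit in the Cyp1a1 result was not tested.

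Cyp1b1, the other CYP1 monooxygenase of the list (ENSMUSG00000024087, chromosome 17, 79701537 to 79715061, minus strand), did not follow Cyp1a1 across the numbers. It had 66.0, 28.3, 69.9 and 67.9 normalized counts untreated and 42.5, 30.3 and 47.6 with FcCD70. The libraries numbered 2 were lowest in both groups. With them set aside, the other FcCD70 libraries lay below the other untreated ones, but the share of all genes with such a split was not computed. Over all 7 libraries the groups overlapped. The rebuilt FcCD70 library numbered 4 had 67.8, between the untreated values of 66.0 and 69.9. The values of the 7 libraries rest on 27 to 78 reads. In number 1 the exact 95% Poisson intervals (45.8 to 77.2 reads untreated, 29.4 to 55.6 with FcCD70, counting error only) overlap. The log2 fold change was -0.36 (SE 0.35, 95% interval -1.15 to 0.43, adjusted p = 0.9998 in limma), and -0.58 without the libraries numbered 2. Per kilobase, Cyp1a1 stood at 19.3 and 16.9 times Cyp1b1 in the untreated libraries numbered 1 and 2 and at 2.47 and 3.12 times in those numbered 3 and 4. With FcCD70 these ratios were 14.2, 13.3 and 3.30 for the numbers 1 to 3, the same division. The ratios of number 2 rest on 28 Cyp1b1 reads untreated and 27 with FcCD70, the lowest of each group, so they reflect low Cyp1b1 as well as Cyp1a1. Across the 7 libraries the 2 genes had a Pearson r of -0.18 on the log2 scale, a description over libraries that share culture and number.

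**Figure D2:**
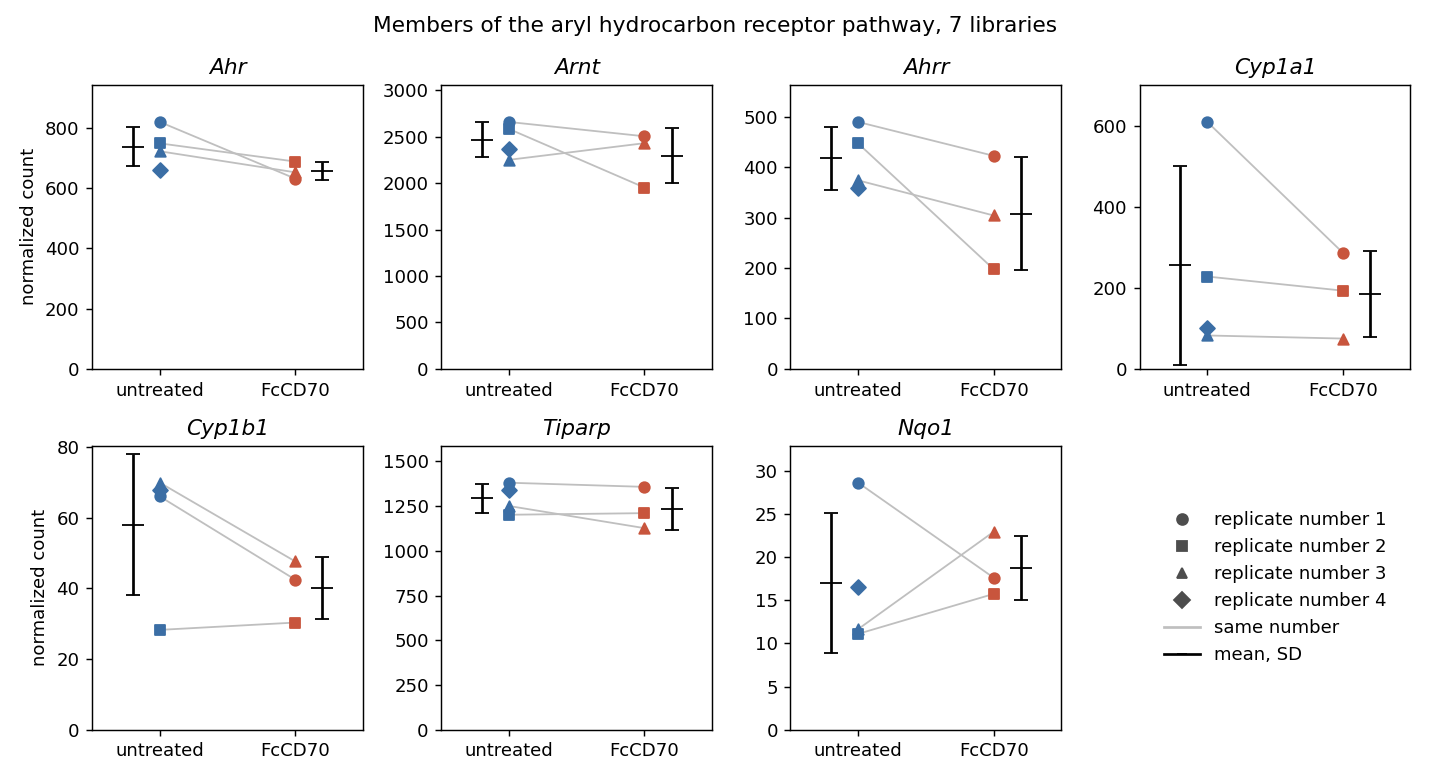
Normalized counts (linear axes from 0) of each gene in the 4 untreated (blue) and 3 FcCD70 (red) libraries, with shapes for replicate numbers, grey lines joining the same number, and black bars for mean and SD. The Cyp1a1 lines start at 610, 228 and 82.5 and keep their order, the Ahr and Ahrr lines all fall, and in Cyp1b1 the squares of number 2 lie lowest.

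Tiparp, whose product ADP-ribosylates the receptor and so restrains it (ENSMUSG00000034640, chromosome 3, 65528410 to 65555518, plus strand), was the steadiest target. It had 1381, 1202, 1251 and 1343 normalized counts untreated and 1358, 1211 and 1127 with FcCD70. The highest of the 7 values was 1.23 times the lowest, and the groups overlapped over most of their range. The log2 fold change was -0.05 (SE 0.13, 95% interval -0.34 to 0.23, adjusted p = 0.9998 in limma). Its untreated SD of log2 values was 0.09, below the 0.13 median of all genes. Of its 4358 exonic bases, 223 are shared with 4931440P22Rik on the opposite strand.

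Nqo1, a quinone reductase gene that both the receptor and NRF2 can switch on (ENSMUSG00000003849, chromosome 8, 107388225 to 107403206, minus strand), was scarcely expressed. Normalized counts were 28.6, 11.1, 11.7 and 16.5 untreated and 17.6, 15.7 and 22.9 with FcCD70. These rest on 11 to 26 reads, above the 3 reads taken as the floor, and the exact 95% Poisson intervals of the lowest and the highest count (5.49 to 19.7 and 17.0 to 38.1 reads, counting error only) overlap. The values followed neither treatment nor number. The log2 fold change was 0.24 (SE 0.56, 95% interval -1.03 to 1.51, adjusted p = 0.9998 in limma), the only positive one of the 7.

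No member passed the test over all genes. None of the 7 had an adjusted p under 0.05 in limma, and 0% of the 11083 genes tested had one (188 had an unadjusted p under 0.05). The edgeR test called 0 genes (168 at an unadjusted p under 0.05) and DESeq2 called 1, or 0.00686% of its genes, which was not a member (149 at an unadjusted p under 0.05). At an unadjusted p under 0.05 limma had 1 member, Ahrr, against 1.70% of all genes, and 1.10% of all genes were lower at that limit. Ahr, Ahrr and Cyp1a1, 3 of the members, were lower in 3 of 3 same-numbered pairs, and 9.61% of all genes were. The groups of 0 members were free of overlap, against 2.53% of all genes. Of the 7 log2 fold changes 6 lay below 0, with a median of -0.21, while 50.9% of all genes lay below 0, with a median of -0.00351. Without the libraries numbered 2, 5 of the 7 lay below 0, with a median of -0.25, against 49.7% of all genes below 0. These counts support nothing by themselves, because the members were chosen with results of these data known.

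**Figure D3:**
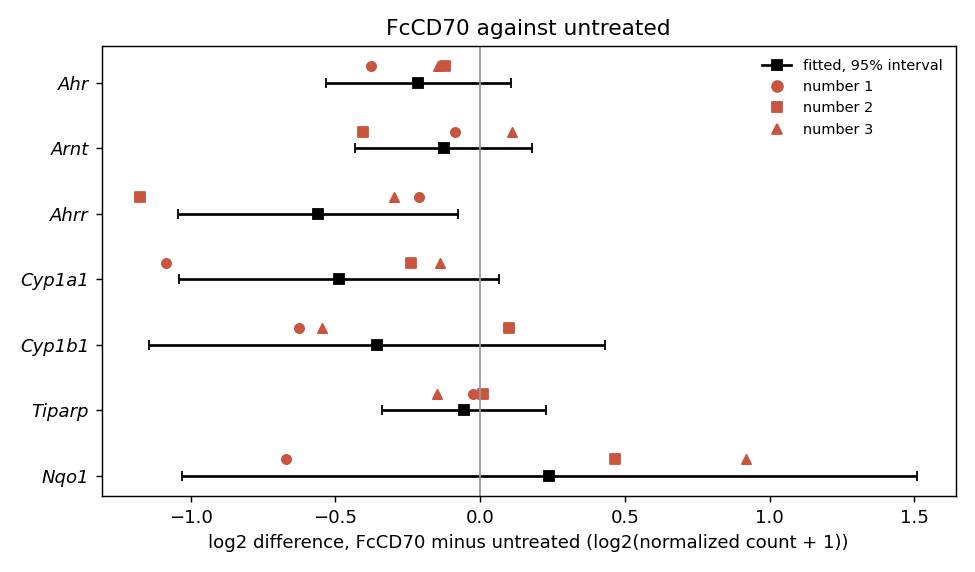
Log2 differences, FcCD70 minus untreated, on the log2(normalized count + 1) scale: black squares with 95% intervals are the fitted values, and red points the differences between libraries of the same number. Ahrr is the member whose interval (-1.04 to -0.08) leaves out 0 in this fit, though not without the libraries numbered 2 (-0.62 to 0.11), and its point for number 2 lies far below the other two, while for Cyp1a1 number 1 does.

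The wider pathway was read from 8 lists with 50 genes, of which 45 had a row and 40 were tested. No gene of these lists passed in either direction in limma. Their median log2 fold change was -0.09, with 29 below and 11 above 0, against 50.9% of all genes below 0. Without the libraries numbered 2 the median was -0.00729, with 21 below and 19 above 0, against 49.7% of all genes below 0. The medians of 3 lists below, coregulators, NRF2 genes and tryptophan genes, then turned positive (0.12, 0.10 and 0.10). In 3 of 3 pairs 7 were lower and 2 higher, against 9.61% and 9.03% of all genes.

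Of the chaperones, Hsp90ab1 had 27192 to 30176 normalized counts over the 7 libraries and a log2 fold change of -0.05, and the median of the 2 tested was -0.03. The 6 coregulators were low with FcCD70 in number 2, at 55.1% to 74.0% of untreated, and in numbers 1 and 3 respectively 0 and 1 of them were lower. The share of all genes lower in number 2 was not computed. In the fit 5 coregulators lay below 0 with a median of -0.17, against 50.9% of all genes below 0. Without the libraries numbered 2 all 6 lay above 0 with a median of 0.12, and 49.7% of all genes lay below 0. Ncoa2, a coactivator with the smallest p among them, was low in FcCD70 number 2, at 2950 normalized counts, against 4346 to 4549 in the other 6. Its log2 fold change was -0.21 in all and 0.00458 without the libraries numbered 2. The CUL4B ubiquitin ligase, which can use the receptor as its substrate adaptor, had a median of -0.04 over 4 genes, with Ddb1, which had the smallest p, at -0.09.

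Relatives of the receptor pair went different ways. Arnt2, a close relative of Arnt, had 77.0, 81.7, 65.1 and 90.5 normalized counts untreated and 39.4, 49.4 and 64.4 with FcCD70. All 3 FcCD70 values lay below all untreated ones, and 2.53% of all genes had groups free of overlap in either direction. The FcCD70 library numbered 4, rebuilt from the authors' mean over 8 libraries, had 88.4, within the untreated range. The log2 fold change of Arnt2 was -0.56 (95% interval -1.28 to 0.16, adjusted p = 0.9998 in limma), and it was -0.36 without the libraries numbered 1. In the list of 3 relatives 2 genes lay above 0 and the median was 0.19.

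Among further target genes of drug metabolism, Cyp1a2 was at 0 in all libraries and Aldh3a1 under the limit for testing. The 2 tested, Cyp2s1 and Xdh, had a median of -0.22 (-0.00587 without the libraries numbered 2), and Xdh, with the smaller p, had a log2 fold change of -0.27 that was 0.058 without the libraries numbered 2. Cyp2s1, a cytochrome also reported to respond to the receptor, ran against Cyp1a1 over the numbers. It had 341, 443, 754 and 663 normalized counts untreated and 356, 343 and 655 with FcCD70, so the libraries numbered 1 and 2 were the low ones. The list of NRF2 and its targets had a median of -0.04 over 7 genes, 4 below and 3 above 0, with Gclm, a glutathione synthesis gene, at 0.21.

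T cell genes that have been linked to the receptor had the lowest median of the 8 lists, -0.37 over 10 tested genes. Of these, 9 lay below 0, against 50.9% of all genes, and 4 were lower in 3 of 3 pairs, against 9.61%. Without the libraries numbered 2 the median was -0.27, with 9 below 0, against 49.7% of all genes. Such counts support nothing by themselves, because the list was chosen with results of these data known. Il17f, an IL-17 family cytokine gene with the smallest p, had 642, 563, 196 and 248 normalized counts untreated and 191, 335 and 41.4 with FcCD70. Its log2 fold change was -1.57 (95% interval -2.18 to -0.96, adjusted p = 0.9998 in limma), and it is the 1 gene that DESeq2 on the reads called (adjusted p = 0.00159). The authors' deposited table, over 8 libraries, gives -1.19 with an adjusted p of 0.211 for Il17f, and the pair numbered 4, with its rebuilt library, differed by -0.12. Without the block, leaving out the FcCD70 library numbered 3 gave -0.53 for Il17f. Il22, the cytokine most tied to the receptor, was at 0 in 5 libraries and at 3.48 and 4.41 in the other two, and was not tested. In the list of tryptophan transport and metabolism, from which natural ligands come, the median was -0.03 over 6 genes. Kynu, which encodes kynureninase, had 28.6, 42.4, 44.7 and 13.9 normalized counts untreated and 86.0, 58.4 and 47.6 with FcCD70. All 3 FcCD70 values lay above all untreated ones, and 2.53% of all genes had groups free of overlap in either direction. In the rebuilt FcCD70 library numbered 4 Kynu had 29.5, within the untreated range. Its fitted log2 difference was 0.70 (95% interval -0.22 to 1.62, adjusted p = 0.9998 in limma), or 0.27 without the libraries numbered 1.

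**Figure D4:**
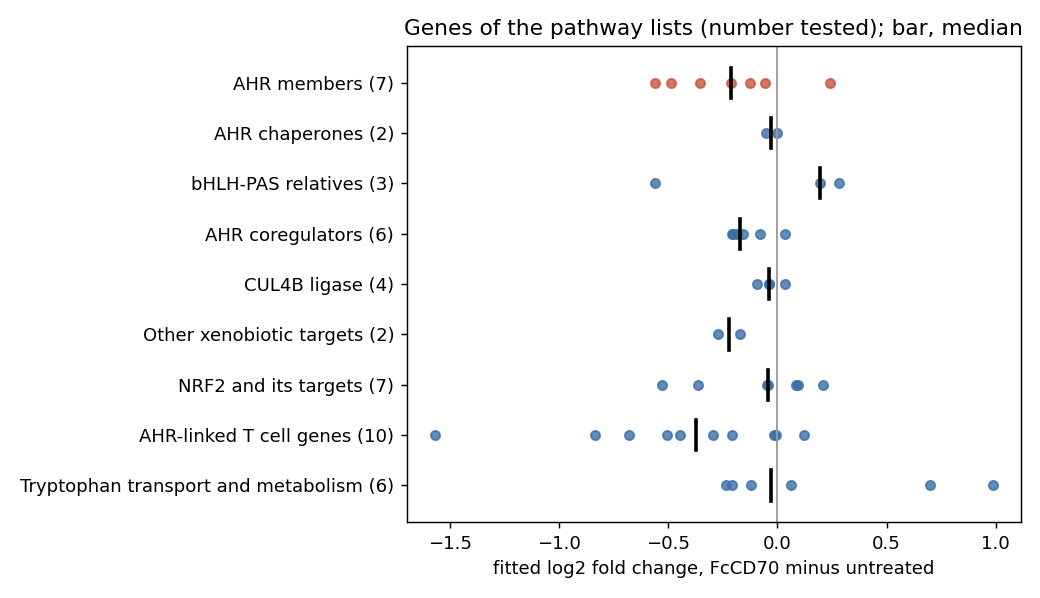
Fitted log2 fold changes, FcCD70 minus untreated, of the 7 members (red) and of the tested genes of 8 lists (blue), 1 point per gene, with the number tested in parentheses and a bar at each median. The T cell genes have the lowest median (-0.37) and Il17f the lowest point (-1.57), while the medians of the chaperones and the ligase genes lie near 0.

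The genes most like each member over the 7 libraries were sought among 9528 named genes with a mean of at least 50, by Pearson r of log2(normalized count + 1). These correlations describe 7 libraries that share numbers, and the nearest of so many genes is always close. Depth differed by number, with 18159685 to 19715108 reads in numbers 1 and 2 and 21200214 to 23527899 in numbers 3 and 4. Its part in the correlations was not tested. For Ahr the nearest genes were Nmrk1 (r = 0.989), Rars (0.950) and Bbs4 (0.944). Nmrk1, a nicotinamide riboside kinase gene, ran from 381 normalized counts in untreated number 1 to 190 in FcCD70 number 1, the ends of its range, which are also the ends of the range of Ahr. For Arnt they were Celsr2 (0.992), Tmc4 (0.988) and Hjurp (0.987), and for Ahrr Mettl16 (0.981), Raph1 (0.980) and Homer1 (0.980). All 6 of these had their lowest value in the FcCD70 library numbered 2, as Arnt and Ahrr did, and Arnt and Ahrr had an r of 0.92 with each other. Over the 6 libraries without it, that r was 0.69, and those of the 6 genes were 0.92 to 0.97. For Cyp1a1 they were Stil (0.995), Nipal1 (0.995) and Mapk8 (0.986). Stil, a centriole duplication gene, had 475 and 151 normalized counts in untreated numbers 1 and 3, and 318 and 162 in FcCD70 numbers 1 and 3. The member most like Cyp1a1 was Tiparp, with an r of 0.58. For Cyp1b1 they were Map3k15 (0.978), Gpr55 (0.964) and Zfp707 (0.962), and for Tiparp Tma16 (0.940), Sez6l2 (0.935) and Zc3h12b (0.931).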

How the data were processed

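Libraries of mouse Tregs were prepared with Illumina's stranded TruSeq mRNA kit (labels' protocols). The submitters' processing notes list the build GRCm38.p4 and the tools TopHat2, SAMtools, HTSeq and DESeq2 without saying what each did. No source used here names the gene annotation or says whether counting used strand.

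The deposited library columns are a signal, reads over a size factor: 100% of values lay within 0.01 of a whole multiple of a per-library step, which gave back the reads. The deposited log2 fold changes, the deposited score (a test statistic) and the deposited p-values have the column names that DESeq2 writes, per the file headers. They are coded as untreated minus FcCD70, so their sign was turned. The FcCD70 sample numbered 4 lacks a column here and was rebuilt from the authors' mean over 8 libraries. It served for 1 alternative, for single values of Cyp1b1, Il17f, Arnt2 and Kynu, and for the closing values.

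The main test was limma 3.58.1 in R 4.3.3 (trended variances) on log2(value + 1), for genes whose mean reached 10, Benjamini-Hochberg adjusted over all genes, threshold 0.05, with the replicate number as a block because the table is named as a paired analysis. The untreated library numbered 4 has no partner, so fold changes rest on 3 pairs with 2 residual degrees of freedom. Fold changes of low genes are understated by the added 1. Alternatives were edgeR 4.0.16 and DESeq2 1.42.0 on the reads, other pseudocounts and filters, no block, and libraries left out. List counts and likeness without the library or libraries numbered 2 were added after seeing the data. The tests were tried on simulated data. Exon lengths and positions are from GENCODE M21 (GRCm38), with the exons of all transcripts merged, and promoter windows from RefSeq.

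The members and lists were chosen with earlier results of these data known. Named genes are the 7 members, the 3 genes most like Ahr and each other member with a mean of at least 50, and from each list the genes called or, with no call, that of smallest p. Other names (Foxp3, Ighm, Cd8a, Cd8b1, Ncr1, Il5, Kit, Zbtb16, Cyp1a2, Aldh3a1, Cyp2s1 and Il22) were chosen after their values were seen.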

Additional observations from a re-analysis of the deposited data

Results flagged for a closer look

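Cyp1b1 in the untreated library numbered 2 had 28.3 normalized counts, far below the other 3 untreated libraries. Its gap to the nearest of them was 0.906 of the group's range, above Dixon's 95% critical value for 4 samples. The FcCD70 library numbered 2 was also the lowest of its group for this gene, with 30.3. Of 15 genes examined in this way this was the only one, and chance flags about 1 group in 20.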

How the results depend on the processing

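The number of genes called was 0 with limma and also with edgeR, without the block, with pseudocounts of 0.5 or 5, without the filter and with the rebuilt eighth library. It was 1 with DESeq2, 0 to 19 with the libraries of 1 number left out (19 without number 2 and 6 without number 3, with 1 residual degree of freedom), and 6 without the FcCD70 library numbered 2 when the numbers 1 and 2 were a covariate. No member was called in any of the 19 alternatives. The correlation of same-numbered libraries' deviations from their group means was 0.30, 0.01 and 0.43 for the numbers 1 to 3, so the data show little pairing for number 2. Without the replicate block 0 genes were called (120 at an unadjusted p under 0.05), and it changed no member's call, though the unadjusted p of Ahrr went from 0.0275 to 0.0693.

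Ahr, Ahrr, Cyp1b1 and Tiparp stayed negative in every alternative, at -0.26 to -0.11, -0.75 to -0.21, -0.77 to -0.22 and -0.15 to -0.00679. Arnt turned to 0.012 without the libraries numbered 2 and to 0.00370 without the FcCD70 library numbered 2, with no block or with the covariate. Cyp1a1 turned to 0.37 without the untreated library numbered 1 and to 0.35 without the FcCD70 library numbered 3, both without the block, fits in which the numbers are not balanced between the groups. Nqo1 turned to -0.10 without the libraries numbered 3. With 1 number left out in turn, Arnt ranged from -0.24 to 0.012, Nqo1 from -0.10 to 0.69, Ncoa2 from -0.31 to 0.00458 and Xdh from -0.53 to 0.058. Of the list genes, Ncoa2 turned to 0.00458 and Xdh to 0.058 without the libraries numbered 2, and to 0.000318 and 0.027 without the FcCD70 library alone, with no block or with the covariate. The causes were not tested. Il17f passed in 4 alternatives, namely DESeq2, the covariate fit, and the fits without number 2 or without number 3. Over the 19 alternatives its adjusted p ran from 8.84e-11 to 0.99998. The smallest came from limma without the libraries numbered 2, a fit with 1 residual degree of freedom. Levels per kilobase kept their order and lay within 1 SD when reads were scaled to the library total. At this depth 3 reads correspond to 2.61 to 3.37 normalized counts, a limit for low genes such as Nqo1 and Il22.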

Other observations

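The rebuilt FcCD70 library numbered 4 (21031069 reads) entered no result above other than the alternative named and the values of Cyp1b1, Il17f, Arnt2 and Kynu given as rebuilt. In it Ahr had 599, Arnt 2312, Ahrr 299, Cyp1a1 87.4, Cyp1b1 67.8, Tiparp 1243 and Nqo1 20.6 normalized counts. Set beside the untreated library of that number, the log2 differences were -0.14 for Ahr, -0.26 for Ahrr and -0.21 for Cyp1a1, the 3 genes that were lower in each of the other pairs. They were -0.04 for Arnt, -0.00288 for Cyp1b1, -0.11 for Tiparp and 0.30 for Nqo1. Its Cyp1a1 value lay with those of the libraries numbered 3 and 4. With this library in the block fit, the log2 fold changes were -0.20 for Ahr, -0.49 for Ahrr and -0.42 for Cyp1a1, with adjusted p of 0.977 for each in limma. Arnt2 had 88.4 and Kynu 29.5 normalized counts in it, so the groups of both then overlapped.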
